A study of Caenorhabditis elegans with 48 samples.

Results

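The genes described here are 10 genes of the mitochondrial unfolded protein response of *C. elegans*, namely *hsp-6*, *hsp-60*, *dnj-10*, *lonp-1*, *clpp-1*, *atfs-1*, *haf-1*, *dve-1*, *ubl-5* and *timm-23*. They were chosen by name, with earlier results of these data known. All 10 were found among the 19885 genes of the expression table, and all 10 were among the 13813 genes tested, whose mean was 0.25 TPM or more (TPM, a length-corrected share of the transcripts of a library that sums to the same total in each). The libraries came from whole adults of JDW259, which carries wrdSi55, with the plant F-box protein TIR1 under the broadly active *eft-3* promoter, and kry61, the degron-tagged nhr-23::AID*::TEV::3xFLAG. Both groups carried both alleles and were given FUdR, which blocks production of offspring. After entrainment by cycles of warm and cold, one group was moved to plates with K-NAA, an auxin analog that leads TIR1 to break down the tagged NHR-23 protein, and the other to mock plates, 12 h before sampling began. The labels give 0.4 mM K-NAA. Worms were then sampled at constant temperature at 12 time points, every 2 h from circadian time (CT) 1 to CT23, from 2 culture plates per time point and condition. This gave 24 mock and 24 K-NAA libraries. Since K-NAA was not given to worms without the degron, loss of NHR-23 and K-NAA itself cannot be told apart.

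In the mitochondrial unfolded protein response, unfolded protein or failing import in mitochondria is signalled to the nucleus, which then makes more mitochondrial chaperones and proteases. The transcription factor ATFS-1 carries signals both for mitochondria and for the nucleus. It is normally imported into mitochondria and degraded there, and it moves to the nucleus when import fails. The response has been studied mostly in the intestine of the worm, where reporters of *hsp-6* and *hsp-60* serve as its standard readout. Whole worms were sequenced here, so fewer cells of a type and less RNA per cell cannot be told apart.

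In each library between 15165 and 16095 genes had a value above 0, and no pair of libraries held identical values. TPM values keep no depth, so the spread between libraries is the only measure of precision. The plates of each condition and time point are numbered 1 and 2 in the labels, and the study describes them as biologically independent. In mock, 16.2% of the genes tested were higher and 0.695% lower in replicate 2 than in replicate 1 (adjusted p under 0.05, limma). In K-NAA the share was 0%, though 2748 of the 13813 genes tested had an unadjusted p under 0.05. Of 4 sperm markers tested, *spe-41* was higher in replicate 2 than in replicate 1 in mock (log2 difference 0.33, adjusted p = 0.0213, limma), while *msp-3*, *msp-10* and *ssp-16* had -1.09, -1.16 and -0.48 and did not pass, and the 6 on the list summed to between 1.52 and 34.96 TPM in mock and between 2.27 and 22.02 TPM in K-NAA. Their part in the values below was not tested.

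The first question was whether the level of the response genes differed between K-NAA and mock worms. *hsp-6*, *atfs-1* and *hsp-60* fell in K-NAA, to 0.766, 0.800 and 0.888 times their mock means, and none of the 10 genes passed as higher (adjusted p under 0.05, limma). A share of 3 of 10 compares with 19.8% of all genes tested that were lower, and 0 of 10 with 9.48% that were higher. With 10 genes, both counts lay close to these background shares. The median log2 fold change of the 10 genes was -0.046, against -0.020 over all genes tested.

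*hsp-6* encodes the mitochondrial HSP70, which pulls proteins through the inner membrane and folds them. It lies on the minus strand of chromosome V from 4824124 to 4826760 (WBcel235). Among the 24 mock libraries *hsp-6* had a lowest value of 244, a median of 329 and a highest of 392 TPM. In K-NAA the lowest was 186, the median 251 and the highest 314 TPM. All 24 K-NAA libraries lay below the mock median, 11 of them lay below every mock library, and the ranges overlapped in between. Mock worms had a mean of 324 ± 39.1 TPM and K-NAA worms of 248 ± 40.3 TPM (SD, n = 24 each). The log2 fold change of *hsp-6* was -0.39 (SE 0.054, 95% interval -0.50 to -0.28, adjusted p = 3.05e-07 from limma). The K-NAA mean was lower at 12 of the 12 time points, and at 10 of them both K-NAA plates were below both mock plates. Its fold change ranked 278 from the lowest among all genes tested.

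*hsp-60*, on the plus strand of chromosome III from 1619742 to 1625803, encodes the mitochondrial chaperonin, a chamber in which imported proteins fold. The lowest, median and highest values of *hsp-60* were 135, 174 and 211 TPM in mock and 96.8, 151.9 and 199 TPM in K-NAA. The ranges overlapped widely, with 17 of 24 K-NAA libraries below the mock median. The mean of *hsp-60* was 174 ± 15.5 TPM over mock and 154 ± 27.4 TPM over K-NAA libraries (SD, n = 24 each), and the K-NAA libraries were the more spread out. The log2 fold change of *hsp-60* was -0.19 (SE 0.060, 95% interval -0.31 to -0.066, adjusted p = 0.0154 from limma). It was lower at 10 of 12 time points. This call rested on replicate 2. Without those libraries the log2 fold change was 0.0097 (adjusted p = 0.898), and without replicate 1 it was -0.39 (adjusted p = 6.43e-04, limma).

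*dnj-10* encodes a mitochondrial J-domain protein, the class of partner that activates HSP70 chaperones, and lies on the plus strand of chromosome III from 8631165 to 8633565. Its lowest, median and highest values were 24.9, 29.9 and 37.3 TPM in mock and 23, 28.6 and 34.3 TPM in K-NAA. The groups overlapped over most of their range. The log2 fold change of *dnj-10* was -0.086 (95% interval -0.17 to -0.0053, adjusted p = 0.103, limma), which did not pass. Without replicate 1 it was -0.22 (adjusted p = 0.00675, limma) and passed, and without replicate 2 it was 0.048 (adjusted p = 0.283).

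The 2 protease genes did not pass in the level test. *lonp-1* encodes the Lon protease of the mitochondrial matrix and lies on the minus strand of chromosome I from 10676922 to 10682374. Its median was 29.9 TPM in mock (20.2 to 36.2) and 29.2 TPM in K-NAA (22.8 to 35.1), with a log2 fold change of -0.038 (95% interval -0.14 to 0.065, adjusted p = 0.620, limma). The value near 0 for *lonp-1* was made of opposite parts, 0.16 without replicate 2 (adjusted p = 0.0355) and -0.23 without replicate 1 (adjusted p = 0.00580, limma). *clpp-1*, on the minus strand of chromosome II from 10300714 to 10302842, encodes the proteolytic subunit of the mitochondrial ClpXP protease, whose peptides are part of the signal to the nucleus. Its median was 41.1 TPM in mock (33.1 to 55.5) and 43.1 TPM in K-NAA (38.3 to 59.7). Its log2 fold change was 0.11 (95% interval 0.018 to 0.21, adjusted p = 0.0666, limma). The call of *clpp-1* as higher came with median ratio rescaling of the libraries (0.15, adjusted p = 0.0300) and without CT1, CT3 or CT9 (0.13 each, adjusted p from 0.0301 to 0.0457). Its gene overlaps *mdt-22* on the other strand. The study describes its libraries as strand-specific, but whether Salmon used the strand of the reads is not stated in the sources.

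Among the regulators, *atfs-1* fell and the others did not pass. *atfs-1*, on the plus strand of chromosome V from 14193663 to 14197700, had a lowest, median and highest value of 42.2, 56.6 and 78.5 TPM in mock and 35.5, 46.8 and 57.0 TPM in K-NAA. In K-NAA 23 of 24 libraries lay below the mock median, and 12 mock libraries lay above every K-NAA library. The means were 57.5 ± 8.66 and 46.0 ± 5.80 TPM (SD, n = 24 each), with a log2 fold change of -0.32 for *atfs-1* (SE 0.052, 95% interval -0.42 to -0.21, adjusted p = 8.89e-06 from limma). It was lower at 12 of 12 time points. Leaving out replicate 2 ended the call of *atfs-1* (-0.14, adjusted p = 0.0628), while leaving out replicate 1 gave -0.49 (adjusted p = 1.69e-04, limma).

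*haf-1* encodes a transporter of the mitochondrial inner membrane that exports peptides, and lies on the plus strand of chromosome IV from 17376427 to 17379310. It was a low transcript, with a median of 3.09 TPM in mock (1.98 to 4.06) and 3.19 TPM in K-NAA (2.44 to 3.88). The log2 fold change of *haf-1* was 0.023 (95% interval -0.098 to 0.14, adjusted p = 0.817, limma). As for *lonp-1*, the value was made of opposite parts, 0.19 without replicate 2 (adjusted p = 0.0539) and -0.14 without replicate 1 (adjusted p = 0.0944, limma). The K-NAA mean was above mock at 6 time points and below it at 6. *haf-1* overlaps C30H6.9 on the other strand.

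*dve-1*, on the minus strand of the X chromosome from 427035 to 433812, encodes a homeodomain protein that gathers at loosened chromatin during the response. Its median was 2.89 TPM in mock (1.36 to 3.62) and 3.08 TPM in K-NAA (2.33 to 4.19). Its log2 fold change was 0.15 (95% interval 0.017 to 0.27, adjusted p = 0.0815, limma), with higher K-NAA means at 9 of 12 time points. *dve-1* passed as higher after median ratio rescaling (0.18, adjusted p = 0.0186) and without CT17 (0.17, adjusted p = 0.0471, limma). *ubl-5*, on the minus strand of chromosome I from 5607826 to 5608841, encodes a ubiquitin-like protein that acts with DVE-1. Its median was 144 TPM in mock (121 to 173) and 138 TPM in K-NAA (117 to 183), with a log2 fold change of -0.053 (95% interval -0.15 to 0.047, adjusted p = 0.457, limma).

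*timm-23* encodes the channel of the inner membrane translocase, through which matrix proteins enter, and lies on the plus strand of chromosome I from 11578641 to 11579612. Its coefficient of variation was 7.48% in mock, the lowest of the 10 genes there, and 8.92% in K-NAA, where *dnj-10* had 8.84%. Its median was 176 TPM in mock (154 to 199) and 177 TPM in K-NAA (151 to 224). The log2 fold change of *timm-23* was 0.025 (95% interval -0.042 to 0.091, adjusted p = 0.623, limma).

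**Figure D1:**
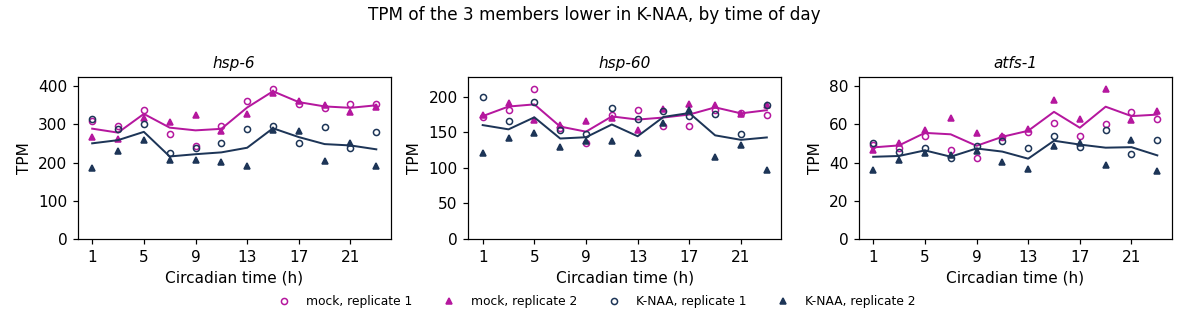
TPM of *hsp-6*, *hsp-60* and *atfs-1* (vertical axes, from 0) by circadian time in hours (horizontal axis) in mock (magenta) and K-NAA (navy). Open circles are replicate 1, filled triangles replicate 2 and lines the mean of both. The K-NAA line lies below the mock line at 12 of 12 time points for *hsp-6* and *atfs-1* and at 10 of 12 for *hsp-60*, where most of the low K-NAA points are triangles.

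**Figure D2:**
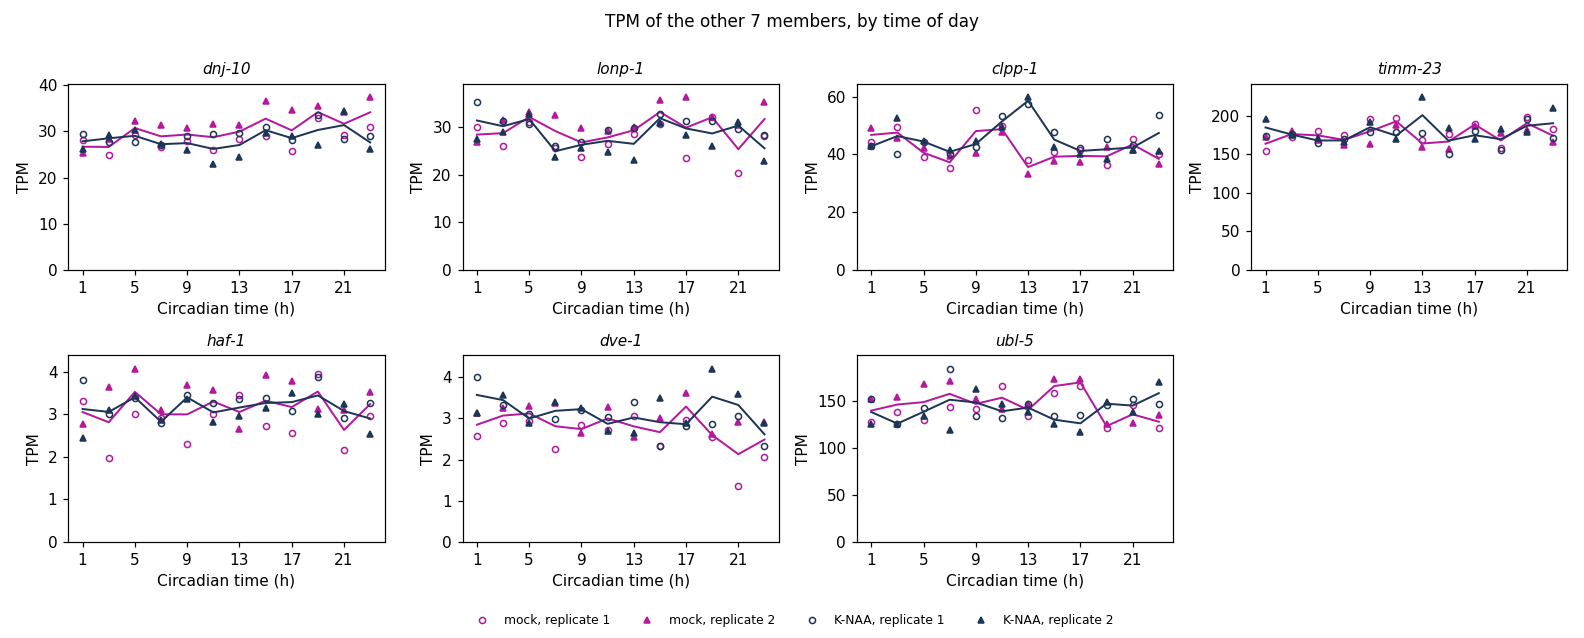
TPM of the other 7 genes (vertical axes, from 0) by circadian time in hours, drawn in the same way. The mock and K-NAA points overlap over most of their range in each gene.

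The levels of several members depended on the replicate number, so the difference in the K-NAA effect between replicate 2 and replicate 1 was tested across all genes, a test chosen after the values were seen. The effect was lower in replicate 2 for 6 of the 10 genes, against 14.7% of all genes tested, and higher for 0 of 10, against 0.825%. Over all genes tested the median log2 fold change was 0.011 in replicate 1 alone and -0.056 in replicate 2 alone. Over the 10 genes it was 0.041 and -0.18. The library factors of median ratio rescaling averaged 0.987 in mock replicate 1 and 1.05 in mock replicate 2. In K-NAA they averaged 0.997 and 0.990. The replicate tests were not repeated with rescaled values, so the part of such library shifts in them was not tested. The 6 genes were *lonp-1* (difference of log2 fold changes -0.39, SE 0.075, adjusted p = 9.62e-04), *hsp-60* (-0.40, SE 0.079, adjusted p = 0.00123), *dnj-10* (-0.27, SE 0.061, adjusted p = 0.00314), *atfs-1* (-0.35, SE 0.086, adjusted p = 0.00564), *haf-1* (-0.33, SE 0.083, adjusted p = 0.00608) and *hsp-6* (-0.27, SE 0.077, adjusted p = 0.0171, limma). Within replicate 1 alone, *hsp-6* was lower in K-NAA (1 of 10 genes, against 8.73% of all) and *lonp-1* was higher (1 of 10, against 11.4%). Within replicate 2 alone, *hsp-6*, *hsp-60*, *atfs-1*, *lonp-1* and *dnj-10* were lower (5 of 10, against 23.4%) and 0 of 10 were higher (against 5.54%). *hsp-6* was the only one of the 10 genes that passed as lower in each replicate by itself, at -0.26 (adjusted p = 0.00278) in replicate 1 and -0.53 (adjusted p = 2.02e-05, limma) in replicate 2.

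The replicates parted in different ways in the 2 conditions. In mock, *dnj-10* (log2 difference of replicate 2 from replicate 1 0.19, adjusted p = 0.00765), *lonp-1* (0.23, adjusted p = 0.0158) and *atfs-1* (0.15, adjusted p = 0.0463, limma) were higher in replicate 2. These 3 of 10 genes compare with the 16.2% given above for all genes, and 0 of 10 were lower. The median difference in mock was 0.064 over all genes tested and 0.13 over the 10 genes. In K-NAA the median over all genes tested was -0.0012. For *dnj-10* in mock, replicate 2 was above replicate 1 at 11 of 12 time points, with means of 32.4 ± 3.47 and 28.2 ± 2.26 TPM (SD, n = 12 each). In K-NAA 0 of 10 passed. The values furthest from 0 there were those of *hsp-60* (-0.36, adjusted p = 0.0668) and *hsp-6* (-0.29, adjusted p = 0.0744, limma). *hsp-60* was lower in replicate 2 at 11 of 12 time points, at 136 ± 22.5 against 173 ± 17.19 TPM, while its mock means were 176 ± 12.4 and 172 ± 18.5 TPM (SD, n = 12 each). What the replicate numbers stand for beyond separate plates is not stated, and the part of any such difference in the calls was not tested.

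**Figure D3:**
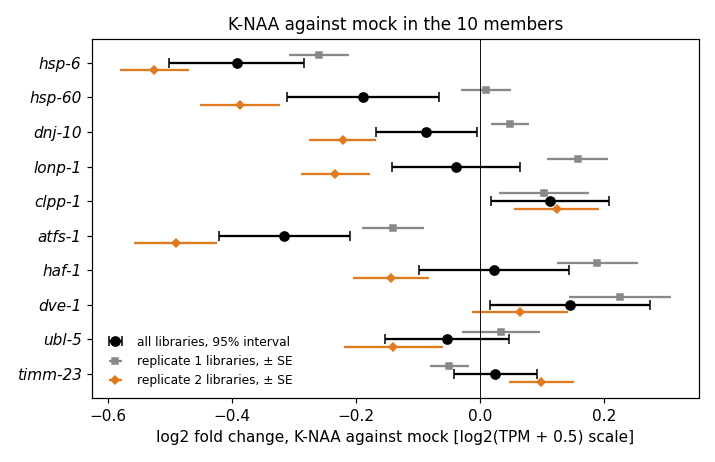
Log2 ratio of K-NAA to mock on the log2(TPM + 0.5) scale (horizontal axis) for the 10 genes (vertical axis), for all libraries with the 95% interval (black), and for replicate 1 (grey) and replicate 2 (orange) alone with ± SE. The replicate 2 value lies further to the left than the replicate 1 value for 8 of the 10 genes, and *hsp-6* and *atfs-1* lie below 0 in both.

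The next question was whether the genes followed the time of day. A cosine of 24 h was fitted to the mock libraries, and its range is the peak minus the trough on the log2 scale. *hsp-6* and *atfs-1* passed an adjusted p of 0.30 in this fit, which is 2 of 10 genes, against 11.7% of all genes tested. The study also used 0.30, but with BioCycle, another test of periodicity, so these are not calls by its criterion. *hsp-6* also passed 0.05, which is 1 of 10, against 1.12%. The median range of the 10 genes was 0.18, against 0.16 over all genes. For *hsp-6* the time point means in mock ran from 278 TPM at CT3 to 386 TPM at CT15. They were between 278 and 327 TPM from CT1 to CT11 and between 343 and 386 TPM from CT13 to CT23. The fitted range was 0.35 with a peak at CT17.7 (adjusted p = 0.0415, limma). For *atfs-1* the means in mock ran from 47.9 TPM at CT1 to 69.3 TPM at CT19, with a range of 0.37 and a peak at CT18.3 (adjusted p = 0.106, limma). Once a linear drift was added, the range was 0.25 for *hsp-6* (adjusted p = 0.832) and 0.11 for *atfs-1* (adjusted p = 0.984, limma), and both calls were lost. With a period of 20 h they were lost at ranges of 0.32 and 0.28, and with the time points as a factor that of *atfs-1* was (adjusted p = 0.496, limma). Leaving out a replicate (12 libraries left) ended both calls with ranges about as large, 0.33 and 0.39 for *hsp-6* and 0.36 and 0.41 for *atfs-1* without replicate 1 and 2. A cycle and a rise through the 1 sampled day cannot be told apart.

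The other 8 genes did not pass in mock. *hsp-60* peaked at CT22.5 in the fit with a range of 0.17 (adjusted p = 0.412), *ubl-5* of 0.21 at CT11.0 (adjusted p = 0.404) and *dnj-10* of 0.19 at CT18.1 (adjusted p = 0.489, limma). *dnj-10*, *hsp-60* and *ubl-5* each passed 0.30 under some of the alternatives. The adjusted p of *clpp-1*, *dve-1*, *lonp-1*, *haf-1* and *timm-23* lay between 0.699 and 0.980.

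In K-NAA 0 of the 10 genes passed at 0.30, against 0.746% of all genes tested, with ranges from 0.033 for *timm-23* to 0.18 for *clpp-1* (unadjusted p from 0.188 to 0.899, limma). The time point means of *hsp-6* ran from 216 TPM at CT7 to 290 TPM at CT15, and those of *atfs-1* from 42.0 TPM at CT13 to 51.4 TPM at CT15. The range of *hsp-6* in K-NAA was 0.12 and that of *atfs-1* 0.14. The difference in rhythm between the conditions passed for 0 of 10 genes, against 0.00724% of all genes tested. At an unadjusted p under 0.05 it was also 0 of the 10, against 4.83% of all genes tested (667). The unadjusted p was 0.288 for *hsp-6*, 0.178 for *atfs-1* and, the lowest, 0.159 for *clpp-1* (limma). A weaker cycle of these genes in K-NAA than in mock was therefore not shown.

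The K-NAA effect was also compared between 4 windows of 3 time points. It differed between windows for 0 of 10 genes, against 0.0362% of all genes tested. The K-NAA effect on *hsp-6* was -0.20, -0.38, -0.47 and -0.53 (SE 0.10 each) in the successive windows (unadjusted p = 0.135, adjusted p = 0.908, limma). That of *atfs-1* was -0.20, -0.20, -0.34 and -0.52 (SE 0.099 each, unadjusted p = 0.0868, limma). *ubl-5* had values of -0.11, -0.072, -0.25 and 0.22 (SE 0.085 each, unadjusted p = 0.00396, adjusted p = 0.426, limma). For *clpp-1* the value furthest from 0 was 0.32 in the CT13 to CT17 window (unadjusted p = 0.0468, adjusted p = 0.771, limma), where its CT13 plates held 57.4 and 59.7 TPM in K-NAA and 38.2 and 33.1 TPM in mock. *ubl-5* and *clpp-1* were thus the 2 of 10 genes at an unadjusted p under 0.05, as were 881 of the 13813 genes tested.

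It was also asked which of the genes varied together from library to library. *hsp-6* was compared with each of the other 9 genes over the 24 libraries of each condition and over the 12 differences between the plates of a time point, 36 relations in all, with p-values adjusted over the 36. In mock *hsp-6* went with *atfs-1* (Pearson r = 0.77, permutation p = 2e-05, adjusted p = 1.44e-04; Spearman rho = 0.73, permutation p = 1.1e-04), and r was 0.71 without the 2 libraries furthest from the median of *hsp-6*. The differences between plates, in which the time of day cancels, gave r = 0.79 (permutation p = 4.6e-04, adjusted p = 0.00166) and rho = 0.82 (permutation p = 0.00189), and r = 0.74 without the 2 furthest. Within replicate 1 the r was 0.87 and within replicate 2 0.85. With *clpp-1*, *hsp-6* had a negative r in mock of -0.59 (permutation p = 0.00219, adjusted p = 0.00657) and a rho of -0.50 (permutation p = 0.0129), with r = -0.43 without the 2 furthest libraries. That relation did not pass over the plate differences (r = -0.38, permutation p = 0.223, adjusted p = 0.382). *dnj-10* had r = 0.49 with *hsp-6* in mock (permutation p = 0.0148, adjusted p = 0.0380) and rho = 0.46 (permutation p = 0.0270, adjusted p = 0.0648), with r = 0.49 without the 2 furthest libraries and 0.21 over the plate differences (adjusted p = 0.590).

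In K-NAA 6 of the 9 relations with *hsp-6* passed over the libraries, the weakest at an absolute r of 0.63, and in mock 3 did, the weakest at 0.49. Of 11200 genes outside the 10, 14.7% had an r with *hsp-6* at least as far from 0 as 0.63 in K-NAA and 10.3% as 0.49 in mock. These shares are over the libraries. No such share was computed over the plate differences in either condition, so how common their r values are among other genes is unknown. The r in K-NAA was 0.89 for *hsp-60* and 0.84 for *lonp-1* (rho 0.88 and 0.84), 0.83 for *atfs-1* (rho 0.77) and 0.76 for *haf-1* (rho 0.73), each with a permutation p for r of 1e-05, the smallest that the permutations can give (adjusted p = 9e-05), and permutation p-values for rho between 1e-05 and 1.4e-04. Without the 2 furthest libraries r was 0.87, 0.86, 0.78 and 0.67 in the same order. Within replicate 1 it was 0.76, 0.78, 0.55 and 0.67, and within replicate 2 it was 0.83, 0.79, 0.85 and 0.75. *dnj-10* had r = 0.67 (rho = 0.72, adjusted permutation p = 9.9e-04, r = 0.64 without the 2 furthest). *timm-23* went the other way, with r = -0.63 (permutation p = 6.8e-04, adjusted p = 0.00223), rho = -0.57 (permutation p = 0.00433) and r = -0.53 without the 2 furthest. Over the plate differences in K-NAA, r with *hsp-6* was 0.89 for *atfs-1*, 0.88 for *haf-1*, 0.86 for *hsp-60* and 0.75 for *lonp-1* (adjusted permutation p from 6.6e-04 to 0.0142), and *dnj-10* (0.65, adjusted p = 0.0528) and *timm-23* (-0.64, adjusted p = 0.0659) did not pass. *dve-1* and *ubl-5* passed in neither condition. Whether any r differed between mock, where *hsp-60* had r = 0.36 and *lonp-1* 0.31, and K-NAA was not tested.

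**Figure D4:**
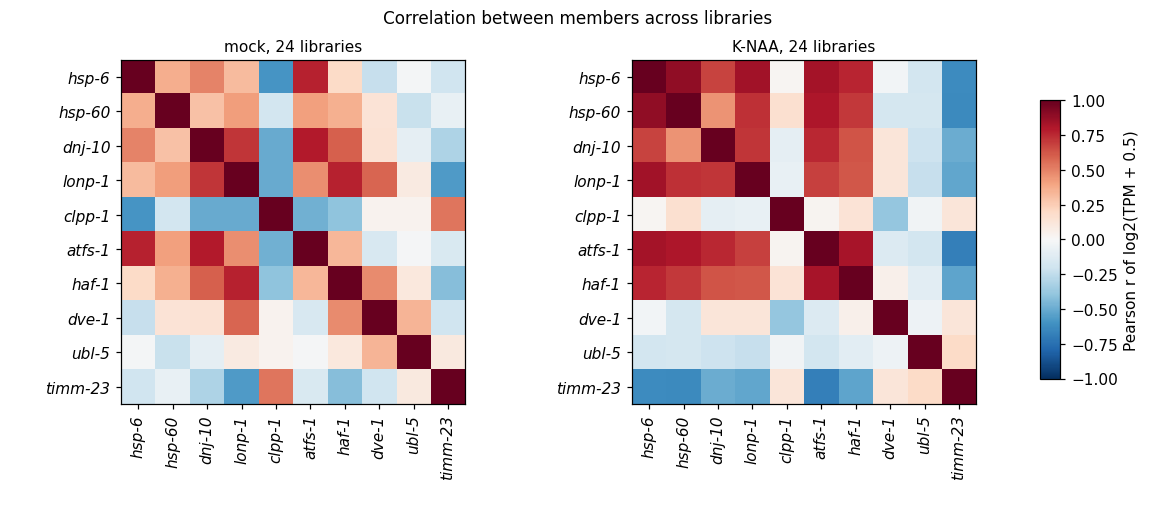
Pearson r between each pair of the 10 genes (both axes, same order) over the 24 mock libraries (left) and the 24 K-NAA libraries (right) on the log2(TPM + 0.5) scale, from -1 (blue) to 1 (red). In K-NAA *hsp-6*, *hsp-60*, *dnj-10*, *lonp-1*, *atfs-1* and *haf-1* form a red block, and their cells with *timm-23* are blue.

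Of 11209 other genes at a mean of 1 TPM or more, those most like *hsp-6* over the 24 mock libraries were *eif-3.E* (r = 0.89), C36A4.4 (0.86), ZC434.8 (0.86), *fntb-1* (0.86) and *gpd-4* (0.85), given as a description. *eif-3.E* encodes a subunit of a translation initiation factor and *gpd-4* a glyceraldehyde-3-phosphate dehydrogenase. In the K-NAA libraries their r with *hsp-6* was 0.63, 0.62, 0.92, 0.81 and 0.89 in the same order. By r from the highest, *atfs-1* ranked 43 and *hsp-60* 1639 in mock, and in K-NAA *hsp-60* ranked 75, *lonp-1* 197, *atfs-1* 231 and *haf-1* 604.

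Other genes of mitochondrial protein quality were read from lists, against the same 19.8% lower and 9.48% higher of all genes tested. For replicate 1 alone the shares of all genes were 8.73% lower and 11.4% higher. For replicate 2 alone they were 23.4% lower and 5.54% higher. Of 8 further mitochondrial chaperones and membrane scaffolds tested, 5 were lower and 1 higher, with a median log2 fold change of -0.11. In replicate 1 alone 2 were lower and 1 higher (median -0.024), and in replicate 2 alone 5 were lower and 0 higher (median -0.17). Among them C34C12.8, a GrpE-like partner of the mitochondrial HSP70, had -0.28 (adjusted p = 1.3e-06) and Y22D7AL.10, a relative of the co-chaperonin HSP10, -0.24 (adjusted p = 8.36e-05, limma). The gene that was higher was *hsp-75*, the mitochondrial HSP90, at 0.11 (adjusted p = 0.0236, limma). Y22D7AL.10 lies 812 bases from *hsp-60* on the opposite strand. Of 9 genes of mitochondrial proteases, their subunits and processing peptidases other than *lonp-1* and *clpp-1*, 8 were lower and 0 higher, with a median of -0.23. The rhomboid protease gene *rom-5* had -0.26 (adjusted p = 8.35e-09) and the paraplegin-like protease gene *ppgn-1* -0.32 (adjusted p = 1.03e-08, limma). In replicate 1 alone 5 of these 9 genes were lower (median -0.14), and in replicate 2 alone 8 were (median -0.33).

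Of 19 import genes beside *timm-23*, 5 were lower and 0 higher, with a median of -0.035 (-0.055 in replicate 1 and -0.0055 in replicate 2). *timm-17B.1*, a partner of the TIMM-23 channel, had -0.21 (adjusted p = 7.36e-08, limma). Of 20 further regulators of the response, 4 were lower and 2 higher, with a median of -0.017. *lin-65*, a chromatin cofactor of the response, had -0.24 (adjusted p = 2.44e-05), and *atf-4*, a factor of the integrated stress response, had 0.16 (adjusted p = 0.00709, limma). In replicate 1 alone 2 of the 20 were lower and 3 higher, against 8.73% and 11.4% of all genes. In replicate 2 alone 10 were lower and 0 higher, against 23.4% and 5.54%.

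Of 12 protein genes encoded in mitochondrial DNA, 10 were lower in K-NAA and 0 higher, with a median log2 fold change of -0.40, and with medians of -0.35 in replicate 1 and -0.42 in replicate 2. The gene of cytochrome b, *ctb-1*, had -0.41 (adjusted p = 2.03e-08, limma). Of 14 cytosolic and endoplasmic reticulum chaperones and their regulators, 13 were lower and 0 higher, with a median of -0.54, and with -0.44 in replicate 1 and -0.64 in replicate 2. Among them the small heat shock protein genes *hsp-16.41* and *hsp-16.11* had -3.71 and -2.85 (adjusted p = 4.75e-22 and 5.78e-19, limma), and *hsp-6* at -0.39 lay closer to 0 than either. Of 71 mitochondrial ribosomal protein genes, 19 were lower and 12 higher, with a median of -0.018. In replicate 1 alone 8 were lower (11.3%, against 8.73% of all genes), and in replicate 2 alone 20 were (28.2%, against 23.4%).

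Markers of cell types were read beside these values. Of 6 intestine markers 0 were lower and 2 higher, summing to between 4404 and 6614 TPM in mock and between 6159 and 7923 TPM in K-NAA. That sum was mostly the yolk protein gene *vit-2* (mean 5524 TPM, log2 fold change 0.32) and the protease gene *asp-1* (640.5 TPM, 0.44), while the other 4, *ges-1*, *elt-2*, *ifb-2* and *pept-1*, had means from 10.03 to 26.3 TPM and values from -0.054 to 0.080 that did not pass (limma). Of 6 body wall muscle markers 0 were lower and 1 higher, of 4 hypodermis markers 0 and 1, of 6 neuron markers 2 and 0, of 6 germline markers 2 and 1 and of 6 embryo markers 0 and 1. Muscle markers summed to between 519 and 764 TPM in mock and between 545 and 878 TPM in K-NAA, and neuron markers to between 330 and 407 and between 305 and 370 TPM. The sums were between 2487 and 2955 TPM in mock and between 2551 and 3047 TPM in K-NAA for the germline, and between 84.1 and 124 and between 91.6 and 116 TPM for embryos. Hypodermis markers summed to between 914 and 1741 TPM in mock and between 1066 and 1911 TPM in K-NAA. Of the hypodermis and sperm markers, 2 of 6 each were under the minimum mean and not tested. The part of these differences in the lower levels of *hsp-6*, *hsp-60* and *atfs-1* was not tested.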

How the data were processed

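Whole adult worms of JDW259 were sequenced at 12 time points in mock and K-NAA, with 2 plates each (48 libraries). The authors ran Salmon on the reads of polyA RNA with WormBase mRNA (WS284) as the reference and deposited TPM for 19885 genes. The build in the submitters' processing notes is ce10. The sources used here do not say how transcripts became genes. TPM values keep no depth, so no counting error was computed. The deposited p-value, q-value, period, lag, amplitude and 2 replicate columns of BioCycle hold the authors' own comparisons and were not used.

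Groups and replicate numbers were read from the sample titles. The 13813 genes whose mean was 0.25 TPM or more were fitted on log2(TPM + 0.5) with limma (3.58.1, R 4.3.3), with a trend of the spread over the mean level and Benjamini-Hochberg adjustment over all of them. Fold changes are on that scale and understate the change of low genes. The level in K-NAA against mock had the time point as a factor (threshold 0.05). The 24 h rhythm was an F test of cosine and sine terms in each condition, and its difference was their interaction with condition. The threshold was 0.30, the number the study used with BioCycle, with 0.05 beside it. The windows, the replicate numbers in each condition, and the interaction of replicate number with condition, which was added after the data were seen, were tested in the same way. The interaction fit had a term for each time point and replicate number together. It thus set mock and K-NAA plates of the same number side by side, though a number is not known to pair plates. Correlations had permutation p-values from 100000 draws, two-sided. The draws over libraries ignored time point and replicate number, so those p-values make no allowance for changes that genes share with either. Where p-values measure the spread between plates, they rest on the study's statement that the plates were independent. The fits were tested on simulated data. Gene positions were read by name from the Ensembl annotation (WBcel235).

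The members and lists were chosen with earlier results of these data known. All 10 members are named. From the other lists at most 4 genes with the smallest p among those called could be named, and *atf-4*, *hsp-75* and markers were named outside this rule after their values were seen. *trap-1*, *icp-1*, *atad-3* and K07E3.2 were dropped from the lists after their values were seen, because they are not known to encode mitochondrial chaperones or proteases. That reason does not cover the membrane scaffolds on the chaperone list, and counts with these genes kept are not given. *lonp-2* was left out of the lists as well. Of the genes like *hsp-6*, the 5 with the highest r in mock are named. Alternatives were other pseudocounts (0.1 and 1), filters (none and 1 TPM), median ratio rescaling, a replicate block, periods of 20 and 28 h, the time points as a factor, a linear drift, the level test with no term for time, no trend of the spread (chosen after seeing the data), and leaving out each replicate, each time point or each library.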

Additional observations from a re-analysis of the deposited data

How the results depend on the processing

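With all libraries 3 of the 10 members were lower in K-NAA, 0 higher, and 2 rhythmic in mock. Leaving out a replicate or a time point gave between 1 and 5 members lower and between 0 and 1 higher, and median ratio rescaling gave 2 higher. Without replicate 2 the log2 fold changes of *hsp-60* and *lonp-1* turned positive, to 0.0097 and 0.16, and without replicate 1 they were -0.39 and -0.23. Of the genes not called, *dnj-10* (0.048) and *ubl-5* (0.034) also turned positive and *timm-23* (-0.050) negative without replicate 2, and *haf-1* (-0.14) turned negative without replicate 1. The rhythmic members in mock were 4 with median ratio rescaling or a 28 h period, 0 with a linear drift or a 20 h period, 1 with the time points as a factor, and between 0 and 3 when a replicate, time point or library was left out. The causes were not tested. Counts of 0 for the rhythm in K-NAA, its difference and the windows were the same under every alternative run (49, 24 and 21 of them).

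Plates with the same number did not deviate together across the conditions: their correlation over 11210 genes lay between -0.099 and 0.19, above 0.1 at 1 of 12 time points. A replicate block gave 3 members lower, 0 higher and 3 rhythmic in mock, the third being *dnj-10* (adjusted p = 0.290, limma). Without depth in the files, counting error at the low levels of *haf-1* and *dve-1* is unknown, and changes smaller than the intervals given could not be shown.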
